A study of Schmidtea mediterranea with 60 samples.

Results

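A set of 78 planarian transcripts carried more reads in animals labelled as fed bmp4 double-stranded RNA than in control animals, both at the moment of amputation and at each later time sampled. The 78 came from 28742 transcripts, of which 18510 had enough reads to be tested, and all 78 were among those. Reads were expressed as CPM, the count of a transcript divided by the total count of its library and brought to a common scale. For each of the 12 groups, log2 of the mean CPM plus 0.5 was taken. A transcript was kept if this value was at least 0.6 higher in the groups labelled bmp4 RNAi than in control at each of 6 times, and if its largest and smallest CPM plus 0.5 in the control libraries at 0 hours differed by less than 4-fold. The set was thus chosen by its RNAi differences themselves, and they are given below as a description with no test.

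The libraries came from Schmidtea mediterranea of the asexual strain CIW4, a freshwater flatworm line propagated clonally. Animals had 4 feedings with dsRNA, either against bmp4 or against unc-22, a nematode gene that served as the control, and were cut 7 days after the last one. Anterior-facing wounds of tail pieces were taken at once (0 hours post-amputation, hpa) and 3, 6 or 16 hpa on the first day, then at 24 hpa and 48 hpa. Each of the 60 libraries pooled 5 wounds, and each RNAi condition had 5 libraries per time. Nothing in the labels says that the pools came from separate RNAi experiments, so the p-values below measure the spread between these pools.

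In planarians, the gene bmp4 makes a secreted ligand, a member of the bone morphogenetic protein (BMP) group, and is expressed on the dorsal side, where it promotes dorsal identity. Animals that lose BMP signalling acquire ventral features dorsally. Ventral transcripts and transcripts held down by BMP are thus the kinds that such a rule can select, and the rule cannot separate them. No measurement of position in the body was used here. In wound fragments, more cells of a type and more RNA per cell cannot be told apart either.

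The targeted transcript did not follow the labels at all times. The bmp4 transcript (dd_Smed_v6_17402_0_1) measured 2.58 to 3.1 CPM in the 5 control libraries at 0 hpa and 5.83 to 8.73 CPM in the 5 labelled as bmp4 RNAi, all above every control. At 3, 16 and 24 hpa, 4, 2 and 2 of the 5 bmp4-labelled libraries also lay above every control. At 6 and 48 hpa all 5 lay below, with 4.9 to 6.6 CPM in control and 0.539 to 3.06 CPM in the others at 48 hpa. Reads of the fed bmp4 RNA and of the animals' own transcript cannot be told apart in these counts. The condition is therefore named by its label ("bmp4-labelled libraries"), and every direction below rests on that label. The equinox transcript (dd_Smed_v6_20318_0_1), named by the study, was lower in all 5 such libraries at every time, and at 0 hpa it measured 3.85 to 4.85 CPM in control against 0.873 to 1.43 CPM.

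Library totals ranged from 5.92 to 23.9 M (mega) counts with a median of 17.3 M, and the smallest was replicate 4 of bmp4 RNAi at 3 hpa. Over the 60 libraries the 78 transcripts had a median of 12114.5 counts each and at most 3186358. In 71 of them every library held at least 10 counts. A spread of 5.70% to 28.2% between replicates (biological coefficient of variation, median 12.6%) compares with a median of 11.6% over all tested transcripts. Each of the 78 belonged to a different component of the assembly by its ID, so none was listed as a second contig of another. Whether different components came from the same gene was not checked, since no sequence was used. For 3 of them the assembly listed a further transcript of the same component outside the set.

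The median RNAi difference of the 78 was 0.95 on the log2 scale at 0 hpa, a 1.93-fold difference already present when the wound was made. It was 1.05, 1.06, 0.94 and 1.05 at 3, 6, 16 and 24 hpa and 1.22 at 48 hpa. Over all tested transcripts the medians lay between -0.01 and 0.06. The difference peaked at 48 hpa for 42 of the 78 and at 0 hpa for 5, and for 60 it was larger at 48 than at 0 hpa. These counts use the differences that chose the set, and nothing is read from them. Of all tested transcripts, 6.45% were higher in the bmp4-labelled libraries at 0 hpa and 17.3% at 48 hpa (edgeR adjusted p below 0.05). These shares count transcripts and do not measure the size of a difference, so they are not compared with the medians above. The bmp4 transcript was lower in all 5 bmp4-labelled libraries at 48 hpa, and also at 6 hpa, where the median difference was 1.06. The part of the bmp4 level in the larger difference at 48 hpa was not tested.

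**Figure D1:**
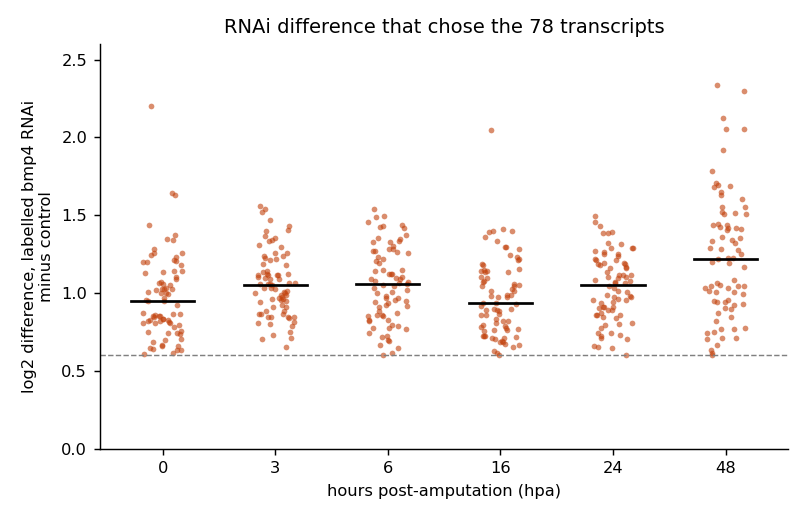
RNAi difference of the 78 transcripts (vertical axis, log2 of mean CPM plus 0.5, bmp4-labelled libraries minus control) at each time after amputation (horizontal axis, hpa). Each point is 1 transcript, black bars are medians and the dashed line is the limit of 0.6 that the selection used. The medians run from 0.94 at 16 hpa to 1.22 at 48 hpa.

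Just inside the limit, the smallest of a transcript's 6 differences was 0.6002 and 0.6006, and just outside it was 0.5977 and 0.5943. A further 3 transcripts met the difference but had 10.2-fold, 27.5-fold and 115-fold ranges among the control libraries at 0 hpa. The widest range inside the set was 2.40-fold. The limit thus lay in a dense part of the distribution, whereas the spread limit fell in a wide gap.

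Although the rule used group means, the individual libraries separated as well. No bmp4-labelled library fell to the level of a control library of its time for 76, 75, 76, 76, 71 and 77 of the 78 at the 6 times in order. Over all tested transcripts this share was 5.43% at 0 hpa and 8.92%, 6.96%, 11.6%, 6.79% and 8.76% at the later times. For 65 transcripts the groups did not overlap at any time, as for 1.04% of tested transcripts. For 41, all 30 bmp4-labelled libraries lay above all 30 control libraries whatever their times, which 0.378% of tested transcripts did. These counts follow from the selection and nothing is read from them.

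**Figure D2:**
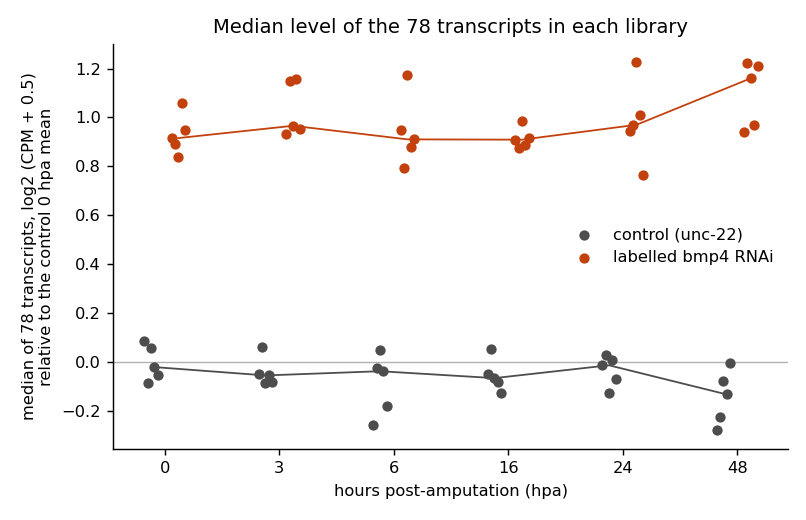
Median over the 78 transcripts of log2 CPM plus 0.5 relative to the control mean at 0 hpa (vertical axis) in each of the 60 libraries by hours post-amputation (horizontal axis). Points are libraries and lines join the medians of each group. Control libraries lie between -0.28 and 0.09 and the bmp4-labelled libraries between 0.77 and 1.23, with no overlap at any time.

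Only 2 of the 78 could be given a protein name. The copy of the study's annotation used here covered 1200 of the 28742 transcripts, and both members among them matched enzymes that build mucin-type O-glycans, the sugar chains attached to serine or threonine of secreted and surface proteins. In mammals GALNT1 attaches the first sugar, N-acetylgalactosamine, and C1GALT1 adds galactose to it, so these enzymes act one after the other. A second table of the study sets other names beside these IDs and was not used. The table used also gives, in the same row, the matching ID of an earlier assembly, but the names remain provisional. With 2 named members no statement about a pathway can be made. The other 76 are known here by transcript ID alone.

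The GALNT1-like transcript (dd_Smed_v6_10587_0_1), whose predicted protein holds a glycosyltransferase domain and a ricin-type lectin domain, measured 11.7, 12.5, 12.9, 13 and 15.8 CPM in control at 0 hpa. In the bmp4-labelled libraries it measured 19.4, 22.4, 23.2, 23.3 and 24.6 CPM at that time. By 48 hpa it measured 7.73, 8.88, 9.9, 9.92 and 10.1 CPM in control and 15.6, 17.0, 17.8, 18.8 and 19.8 CPM in the bmp4-labelled ones. The groups did not overlap at either time, and control libraries at 48 hpa lay below all those at 0 hpa. It fell by 0.54 ± 0.0757 on the log2 scale by 48 hpa averaged over both conditions (log2 change ± standard error, edgeR quasi-likelihood test over all 60 libraries, adjusted p = 1.76e-08). The estimates were -0.64 ± 0.111 in control and -0.45 ± 0.103 in the bmp4-labelled libraries.

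The C1GALT1-like transcript (dd_Smed_v6_10507_0_1) measured 2.14, 2.35, 2.37, 2.64 and 4.86 CPM in control at 0 hpa. The bmp4-labelled libraries held 4.65, 5.93, 6.57, 7.51 and 7.98 CPM. A single control library at 4.86 CPM reached the lowest bmp4-labelled library. Between 0 and 24 hpa the change averaged over both conditions was -0.44 ± 0.164 (log2, edgeR adjusted p = 0.0222). Without replicate 1 or replicate 4 this no longer passed (edgeR adjusted p = 0.0732 and 0.0838), nor without the libraries of high bmp4 level described below (adjusted p = 0.0874), and at 48 hpa the change was -0.20 ± 0.159 (adjusted p = 0.31). With 25 to 82 counts per control library this transcript had wide counting error.

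The transcript whose smallest RNAi difference was the largest of the 78 was dd_Smed_v6_680_0_1, with 1.14 at its lowest and 1.60 at 48 hpa. At 0 hpa it measured 115, 122, 133, 176 and 209.5 CPM in control and 307, 318, 339, 346 and 428 CPM in the bmp4-labelled ones. Over all times its control libraries reached at most 209.5 CPM and bmp4-labelled ones from 274 to 488 CPM. Of its changes averaged over both conditions, that at 16 hpa was furthest from 0, at -0.23 ± 0.103 (log2, edgeR adjusted p = 0.0602), and none of the 5 passed. At 16 hpa 5 of 13 alternatives did pass, with adjusted p from 0.0103 without replicate 3 to 0.0492 with RLE size factors.

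The transcript with the most reads, dd_Smed_v6_238_1_1, was singled out after its values were seen. It measured 1469, 1508, 1857, 2360 and 2781 CPM in control at 0 hpa and 3806, 3838, 4419, 4669 and 5224 CPM in the bmp4-labelled ones. Its 30 control libraries reached from 1212 to 2781 CPM and the others from 2717 to 5224 CPM. The ranges overlapped by 1 control library at 0 hpa and 1 bmp4-labelled library at 24 hpa. At 6 hpa the average change was -0.27 ± 0.103 (log2, edgeR adjusted p = 0.0414), but 6 of 13 alternatives did not pass, among them those without replicate 1 (-0.13, adjusted p = 0.436), replicate 3 (0.153) and replicate 5 (0.151).

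**Figure D3:**
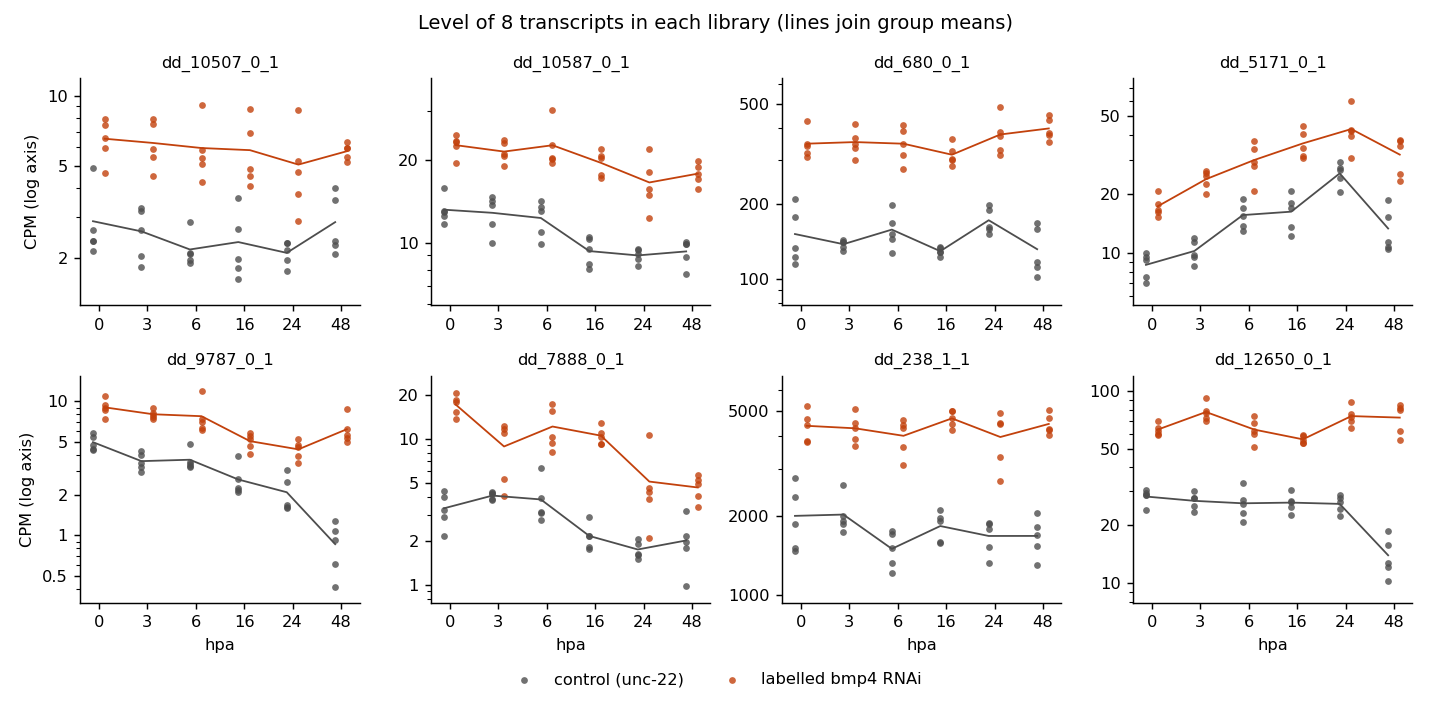
Level of 8 transcripts of the set (vertical axis, CPM on a log axis that differs between panels) in each library by hours post-amputation (horizontal axis). Points are libraries and lines join the means of 5 libraries. Transcript dd_5171_0_1 rose in both conditions up to 24 hpa, dd_9787_0_1 and dd_7888_0_1 fell in both, and dd_12650_0_1 had its lowest control values at 48 hpa.

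The course after amputation was examined next. The change from 0 hpa averaged over both RNAi conditions was not used by the rule, and it was tested with p-values adjusted over all 18510 transcripts. At 3, 6, 16, 24 and 48 hpa, 22, 24, 37, 38 and 35 of the 78 passed (edgeR, adjusted p below 0.05). Those higher numbered 9, 10, 12, 17 and 10, where 11.3%, 15.9%, 22.2%, 24.0% and 23.1% of all tested transcripts were higher. Those lower numbered 13, 14, 25, 21 and 25, where 9.5%, 15.9%, 21.3%, 22.3% and 21.3% of all were lower. In either direction the shares of the 78 that passed were 28.2%, 30.8%, 47.4%, 48.7% and 44.9% against 20.8%, 31.8%, 43.4%, 46.4% and 44.3%. Without the 8 bmp4-labelled libraries at 3, 16 and 24 hpa whose bmp4 level lay above every control, 11 passed at 3 hpa.

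Over the 5 later times, 62 of the 78 passed at 1 time or more in this average, as did 71.3% of all tested transcripts, and 16 passed at none. Of the 78, 38 were lower alone, 19 higher alone and 5 higher at 1 time and lower at another. Of all 18510 tested transcripts, passed or not, 33.1%, 34.3% and 3.82% were so. At all 5 times 3 were higher and 5 were lower, beside 4.95% and 3.12% of all. At 2-fold or more, 3 of the 78 passed at 24 hpa and 2 at 48 hpa, near the 3.56% and 3.36% of all tested transcripts. None did at 3, 6 or 16 hpa, where 1.12%, 1.78% and 2.92% of all did.

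The largest rise was that of dd_Smed_v6_5171_0_1. It measured 7, 7.52, 9.22, 9.55 and 10 CPM in control at 0 hpa and 20.4, 24.1, 26.5, 27.3 and 29.1 CPM at 24 hpa. In the bmp4-labelled libraries it went from 15.2, 16.2, 16.5, 17.8 and 20.6 CPM to 30.7, 39.7, 42.1, 42.4 and 60.1 CPM. No library at 24 hpa overlapped those at 0 hpa in either condition, and the control libraries at 24 hpa lay within or above the range of the bmp4-labelled ones at 0 hpa. The rise averaged over both conditions was 1.40 ± 0.124 (log2, edgeR adjusted p = 8.07e-14), from estimates of 1.52 ± 0.181 in control and 1.28 ± 0.17 in the bmp4-labelled libraries. By 48 hpa the average change from 0 hpa was 0.62 ± 0.125 (edgeR adjusted p = 4.43e-05).

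The largest fall was that of dd_Smed_v6_9787_0_1. In control it measured 4.32, 4.45, 4.74, 5.46 and 5.85 CPM at 0 hpa and 0.409, 0.614, 0.918, 1.08 and 1.28 CPM at 48 hpa. In the bmp4-labelled libraries it measured 7.37, 8.6, 8.98, 9.33 and 10.9 CPM at 0 hpa and 5.02, 5.33, 5.66, 6.25 and 8.76 CPM at 48 hpa. Averaged over both conditions it fell by 1.18 ± 0.122 by 24 hpa and by 1.67 ± 0.132 by 48 hpa (log2, edgeR adjusted p = 3.26e-12 and 1.84e-16). The control estimates were -1.27 ± 0.183 at 24 hpa and -2.69 ± 0.212 at 48 hpa. In the bmp4-labelled libraries they were -1.085 ± 0.163 at 24 hpa and -0.65 ± 0.155 at 48 hpa, so the fall there was smaller at 48 hpa. The lowest control library held 8 counts.

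A second large fall, that of dd_Smed_v6_7888_0_1, had its larger estimate in the bmp4-labelled libraries. These measured 13.7, 15.2, 17.7, 18.3 and 20.6 CPM at 0 hpa and 3.38, 4.03, 4.88, 5.17 and 5.67 CPM at 48 hpa. In control it measured 2.14, 2.9, 3.26, 3.97 and 4.39 CPM at 0 hpa and 0.979, 1.79, 1.95, 2.15 and 3.17 CPM at 48 hpa. Averaged over both conditions the change by 48 hpa was -1.42 ± 0.198 (log2, edgeR adjusted p = 3.32e-08), from estimates of -1.99 ± 0.25 in the bmp4-labelled libraries and -0.86 ± 0.31 in control. Its RNAi difference went from 2.20 at 0 hpa to 1.03 at 48 hpa. For the 2 transcripts that fell most, the RNAi difference thus ended on opposite sides of where it began, at 2.30 for dd_Smed_v6_9787_0_1 (from 0.80 at 0 hpa) and at 1.03 for dd_Smed_v6_7888_0_1. The difference between the courses of a transcript is made of the RNAi differences that the rule used, so it was not tested.

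Each RNAi condition was then taken alone. The level of each condition at each time entered the rule, and a change within 1 condition is the average change plus or minus a part of the shift in the RNAi difference. The counts within a condition are therefore a description of the selected transcripts, and nothing is read from them or from their distance to all transcripts. In control, 8, 16, 19, 32 and 44 of the 78 passed against 0 hpa at 3, 6, 16, 24 and 48 hpa. The lower ones numbered 6, 10, 11, 18 and 36, against 3.46%, 12.7%, 15.5%, 16.6% and 20.2% of all tested transcripts. The higher ones numbered 2, 6, 8, 14 and 8, against 5.35%, 12.5%, 16.8%, 17.0% and 20.9% of all. Leaving out replicate 1 gave 4 calls in place of 8 at 3 hpa and 10 in place of 16 at 6 hpa.

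In the bmp4-labelled libraries, 14, 15, 23, 28 and 20 passed at the same times. The lower ones numbered 7, 9, 20, 12 and 9, against 4.56%, 5.4%, 13.5%, 14.5% and 12.4% of all. The higher ones numbered 7, 6, 3, 16 and 11, against 5.97%, 7.75%, 14.7%, 18.1% and 13.1% of all. At 16 hpa 25.6% of the set was lower and 3.85% higher, and by 48 hpa the shares were 11.5% and 14.1%. At 3 hpa the count of 14 became 6 without replicate 3, 9 without replicate 5 and 4 without the libraries of high bmp4 level. At 6 hpa the count of 15 became 9 without replicate 5.

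**Figure D4:**
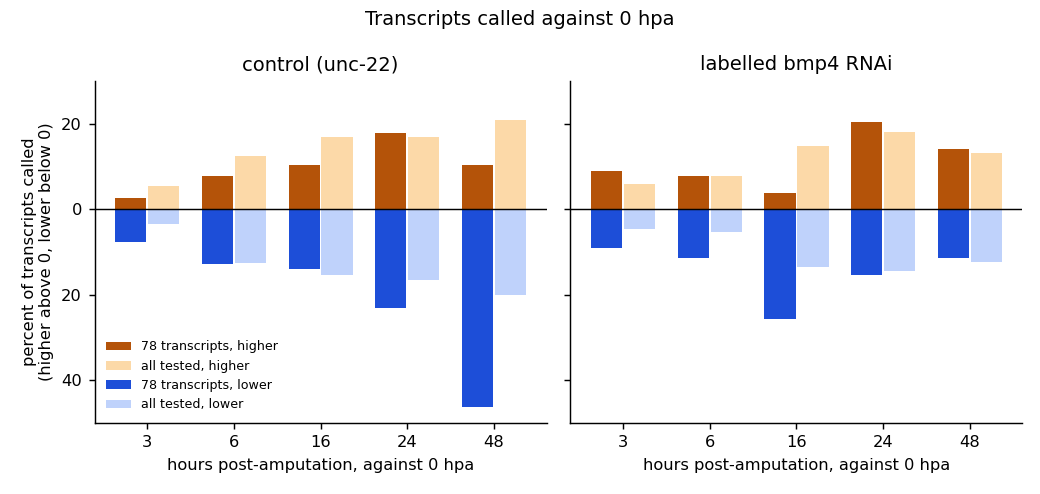
Share of transcripts that passed against 0 hpa (vertical axis, percent, higher drawn upwards and lower drawn downwards, edgeR adjusted p below 0.05) at each later time (horizontal axis, hpa), in control (left) and in the bmp4-labelled libraries (right). Dark bars are the 78 transcripts and pale bars all 18510 tested. In control at 48 hpa the lower share is 46.2% for the set and 20.2% for all, for levels that the selection used.

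The median changes in the 2 conditions lay furthest apart at 48 hpa. The median change of the 78 from 0 to 48 hpa was -0.27 on the log2 scale in control (quartiles -0.54 and -0.06) and 0.05 in the bmp4-labelled libraries (quartiles -0.08 and 0.23). These medians, too, rest on levels that the rule used. Over all tested transcripts the medians were -0.01 and 0.02. Estimates were negative for 60 of the 78 in control and for 27 in the bmp4-labelled libraries. Every control library at 48 hpa lay below every one at 0 hpa for 11 of the 78, where 8.41% of all tested transcripts did so, and the corresponding count in the bmp4-labelled libraries was 3, where 3.32% did so.

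These counts depended on how libraries were scaled. When library totals alone were used, the median of all transcripts moved up by 48 hpa, to 0.13 in both conditions, and the median of the 78 became -0.14 in control and 0.15 in the others. In control 19 of the 78 were then lower and 11 higher, beside 12.4% and 30.2% of all. Among the changes in bmp4-labelled libraries 5 were lower and 22 higher, beside 6.84% and 24.8% of all. For the average of both conditions, which the rule did not use, the median of the 78 at 48 hpa was -0.10 beside 0.01 over all transcripts, and 0.02 beside 0.13 with library totals alone.

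Of the 36 transcripts lower in control at 48 hpa, 27 did not pass in either direction in the bmp4-labelled libraries, 7 were lower there as well and 2 were higher. Of all transcripts lower in control at that time the shares were 57.2%, 40.1% and 2.78%. Their median change was -0.55 in control and 0.01 in the bmp4-labelled libraries. Of the 8 higher in control, 4 were higher in the bmp4-labelled libraries and 4 did not pass. The matching shares of all transcripts higher in control were not counted, so nothing is read from these numbers. At the earlier times every member that passed in both conditions had the same sign, for 4 of 4, 9 of 9, 10 of 10 and 20 of 20 members at 3, 6, 16 and 24 hpa, as had 99.9%, 99.8%, 99.9% and 99.4% of all transcripts that passed in both. At 48 hpa the number was 11 of 13, beside 95.1% of all. Passing in one condition and not in the other does not show that the conditions differ, and the difference was not tested.

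**Figure D5:**
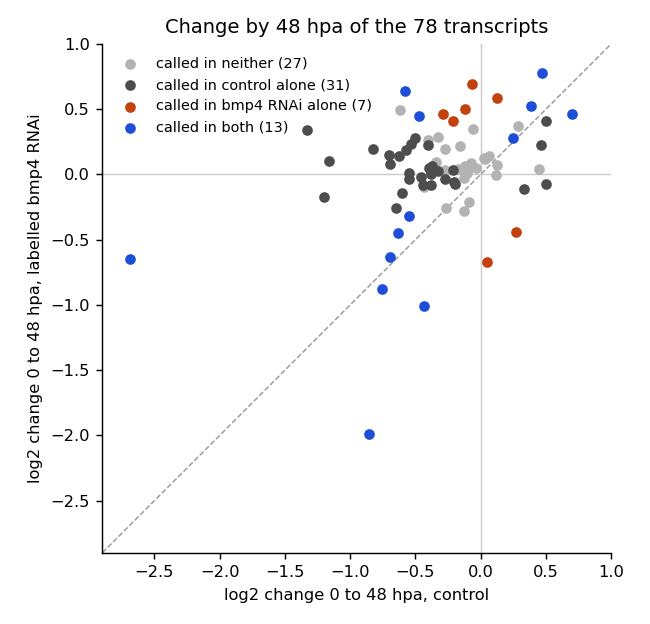
Log2 change from 0 to 48 hpa in control (horizontal axis) and in the bmp4-labelled libraries (vertical axis) for each of the 78 transcripts, coloured by the condition in which the change passed (edgeR adjusted p below 0.05). The dashed line marks equal change. Of the 36 transcripts lower in control, 27 did not pass in the bmp4-labelled libraries, and dd_Smed_v6_9787_0_1 lies far left at -2.69.

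A transcript with a lower control level at 48 hpa alone was dd_Smed_v6_12650_0_1, which was singled out after its values were seen. It was the only member that passed in control at 48 hpa, with a fall of at least 2-fold, and in no other contrast within a condition. In control it measured 24.0, 28.6, 28.6, 29.6 and 30.4 CPM at 0 hpa, 22.3, 24.2, 26.3, 27.9 and 28.6 CPM at 24 hpa and 10.3, 12.2, 12.7, 15.9 and 18.8 CPM at 48 hpa. In the bmp4-labelled libraries it measured 59.1, 59.6, 61.6, 64.0 and 70.1 CPM at 0 hpa and 55.6, 62.1, 79.7, 81.4 and 84.4 CPM at 48 hpa. The average change by 48 hpa was -0.53 ± 0.0845 (log2, edgeR adjusted p = 5.41e-07), from estimates of -1.16 ± 0.125 in control and 0.10 ± 0.114 in the bmp4-labelled libraries. The control fall for which the transcript was singled out is part of this average, so nothing is read from the p-value.

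Levels of the 78 were also compared between replicates, of which the rule used the range in control at 0 hpa. After the mean of each group was subtracted from log2 CPM, the mean pairwise Pearson r across the 60 libraries was 0.126 among the 78 and 0.00116 among all tested transcripts. It was 0.16 among the 36 lower in control at 48 hpa and 0.11 among the other 42. Single pairs ranged from -0.64 to 0.78, so the set was not of one piece. The points share libraries, and a low r of this size is a description only.

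Lists of annotated transcripts were examined beside the set. None of their members belonged to the 78, but only 2 of the 78 were among the transcripts with annotation rows. The lack of overlap was thus nearly fixed in advance, and nothing is read from it. Of 19 listed cilia transcripts 9 were tested. Of these, 6, 5, 5, 4, 9 and 6 were higher in the bmp4-labelled libraries at the 6 times in order and none was lower (edgeR adjusted p below 0.05). Under the other scalings 4 to 9 were higher at a time and again none was lower. Of all tested transcripts 6.45%, 6.95%, 9.67%, 9.68%, 10.2% and 17.3% were higher at these times. The median of the list lay between 0.18 and 0.44 on the log2 scale, below the 0.6 that the rule asked for. The dynein heavy chain DNAH10-like transcript (dd_Smed_v6_10425_0_1), a motor of beating cilia, measured 37.2 ± 7.46 CPM in control and 51.5 ± 6.37 CPM in the bmp4-labelled libraries at 0 hpa (mean ± SD, n = 5 each, edgeR adjusted p = 0.00147). Another dynein heavy chain on the list, the DNAH17-like dd_Smed_v6_10191_0_1, measured 7.96 ± 0.872 and 9.66 ± 7.07 CPM at 0 hpa (edgeR adjusted p = 0.615). It passed at 24 hpa alone (edgeR adjusted p = 0.0158). Planarians carry motile cilia on the ventral surface, by which they glide, and also in the excretory system.

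The list of BMP and TGF-beta signalling held bmp4 and 3 other transcripts. The SKI-like transcript (dd_Smed_v6_10394_0_1), named for a repressor that binds SMAD proteins, was higher at 3, 6 and 24 hpa, with 28.1 ± 1.24 CPM in control and 36.4 ± 2.05 CPM in the bmp4-labelled libraries at 6 hpa (mean ± SD, n = 5 each, edgeR adjusted p = 0.000622). Noggins are secreted BMP antagonists in vertebrates. Of the 2 noggin-like transcripts, dd_Smed_v6_10469_0_1 was lower in the bmp4-labelled libraries at every time but 3 and 24 hpa, with 15.1 ± 2 CPM in control and 8.54 ± 1.07 CPM at 16 hpa (mean ± SD, n = 5 each, edgeR adjusted p = 2.32e-07). The other, dd_Smed_v6_10386_0_1, was lower at 0 hpa with 7.2 ± 0.787 and 5.38 ± 0.729 CPM (mean ± SD, n = 5 each, edgeR adjusted p = 0.00437). The goosecoid-like transcript (dd_Smed_v6_10184_0_1), of the transcription factor list, encodes a homeodomain protein. It was lower at 48 hpa with 40.6 ± 2.02 and 29.1 ± 2.73 CPM (edgeR adjusted p = 1.4e-06, n = 5 each) and did not pass at any earlier time. At 48 hpa 4 of the 9 tested transcripts of that list were lower. The SOX5-like and FOXA1-like ones had larger RNAi differences than the goosecoid-like one (log2 -0.70 and -0.80 against -0.46). Among 13 neurotransmission transcripts 2 to 6 were higher and up to 3 lower at a time, and among 9 transcription factors 1 to 2 were higher and up to 4 lower. Of all tested transcripts 6.45% to 17.3% were higher at a time. The share of all tested transcripts that were lower was not counted, so nothing is read from the counts of lower transcripts on the lists. The FOXJ1-like transcript (dd_Smed_v6_10152_0_1) stood on both this list and that of cilia, and was among the higher ones at each time. The share of counts on 8 mitochondrial transcripts was 0.195% to 0.711% in single libraries, and 1 of the 8 was higher at 3 hpa. Its median went from 0.241% at 0 hpa to 0.343% at 48 hpa in control and from 0.251% to 0.445% in the bmp4-labelled libraries, and its part in the changes by 48 hpa was not tested.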

How the data were processed

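The deposited table held raw read counts for 28742 transcripts in 60 libraries, and 0 columns were left unused. The authors mapped reads with bowtie, reporting the best alignment, to the dd_Smed_v6 transcriptome, counted reads per contig with coverageBed of bedtools and summed contigs of an isotig group. The submitters' processing notes also name cutadapt 1.8 and SAMtools 1.6. The handling of strand and of reads that matched several contigs equally well was not given in the sources used here, so transcripts with near-identical copies or antisense partners are uncertain. No genome position or sequence was used.

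The 78 members, the lists and the tests were chosen with earlier results of these data known. Protein names came from the study's annotation, of which the rows of 1200 transcripts were used here, 863 with a match. Named were bmp4, equinox, annotated members, the member with the largest smallest RNAi difference, the largest rise and the 2 largest falls. Tests were two-sided and used edgeR 4.0.16 (R 4.3.3, quasi-likelihood, robust, all 60 libraries in a single fit) after filterByExpr (minimum count 10, minimum total 15), with TMM factors of 0.926 to 1.12 and Benjamini-Hochberg adjustment within a contrast. The code was tested on simulated data. Alternatives were other scalings, no filter, DESeq2 1.42.0, fits of the compared libraries, a replicate block, a 2-fold limit and leaving out replicates. The study itself tested pairs of groups with DESeq.

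No pair of libraries of a group was closer than sampling noise (smallest chi-square per transcript 3.39).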

Additional observations from a re-analysis of the deposited data

Results flagged for a closer look

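Among 96 groups of 5 libraries, those of the 8 named transcripts, 6 held a library that stood far from the others (gap to its neighbour over 0.71 of the range), and chance alone gives about 5% of groups. The library and its value are given for each. For dd_Smed_v6_10507_0_1 these were control 0 hpa replicate 3 at 4.86 CPM (others 2.14 to 2.64) and control 6 hpa replicate 2 at 2.84 CPM (others 1.89 to 2.09). For dd_Smed_v6_10587_0_1 it was bmp4 RNAi 6 hpa replicate 3 at 30.3 CPM (others 19.5 to 22.6). For dd_Smed_v6_9787_0_1 these were control 6 hpa replicate 3 at 4.83 CPM (others 3.26 to 3.56) and bmp4 RNAi 6 hpa replicate 3 at 11.9 CPM (others 6.13 to 7.4). For dd_Smed_v6_12650_0_1 it was control 0 hpa replicate 3 at 24.0 CPM (others 28.6 to 30.4). For dd_Smed_v6_7888_0_1 at 3 hpa, every control library lay above the control mean at 0 hpa (log2 change 0.31) and every library labelled bmp4 RNAi below its own (log2 change -1.01). That difference was not tested.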

How the results depend on the processing

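The selection gave 149 transcripts with a limit of 0.5 and 37 with 0.8, and 52 to 90 under the other alternatives. Leaving out a replicate gave 75 to 90, of which 68 to 73 were among the 78, TMM-scaled CPM gave 68, and leaving out the libraries of high bmp4 level (chosen after seeing the data) gave 70, of which 66 were among the 78. A 2-fold limit reduced the calls at 3, 6, 16, 24 and 48 hpa to 0, 0, 0, 3 and 2 for the average, 0, 1, 0, 4 and 4 in control and 2, 1, 2, 4 and 2 in the bmp4-labelled libraries, beside 1.12% to 3.56%, 0.87% to 6.1% and 1.28% to 3.53% of all tested transcripts over these times. Leaving out a replicate gave 4 to 8 calls in control at 3 hpa and 10 to 17 at 6 hpa, and 6 to 11 in the bmp4-labelled libraries at 3 hpa and 9 to 14 at 6 hpa. In control at 48 hpa it gave 36 to 40. Without the libraries of high bmp4 level, which left 1 library labelled bmp4 RNAi at 3 hpa, whose spread was taken as that of the other groups, 11 passed for the average and 4 in the bmp4-labelled libraries. Fitting the compared libraries alone gave 9 in the bmp4-labelled libraries at 6 hpa. The cause was not tested. With library totals alone the higher and lower calls became 14 and 13 for the average at 48 hpa, and 10 and 6 at 3 hpa and 7 and 16 at 16 hpa in the bmp4-labelled libraries. Same-numbered libraries were not paired, since in none of 16 comparisons did all 5 pairs exceed r = 0.1 and 9 of 80 libraries matched best with their own number. The replicate block moved no count by over 1.5 times and gave -0.26 (edgeR adjusted p = 0.0514) for dd_Smed_v6_238_1_1 at 6 hpa. The fall of dd_Smed_v6_12650_0_1 in control at 48 hpa lay between -1.31 and -1.02 in 13 alternatives, all of which passed. This transcript was singled out because that fall passed, so nothing is read from the alternatives. Counts below 10 in some library, in 7 members, limited precision there.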
